A study of Drosophila melanogaster with 42 samples.

Results

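The accessible regions of chromosome 4 of Drosophila melanogaster were followed through early embryos of 4 genotypes. They were chosen by position alone. They comprise the 232 tested regions on chromosome 4, of 20935 tested across the genome, and the 19699 peaks on chromosome 4, of 1909304 in the peak lists of all 42 libraries. A peak is a stretch that the authors' caller found enriched for fragments in 1 library, and a tested region is an interval of 2114 bp at which the authors compared mutants with wild type. The table names describe the tested regions as OreR peaks, of 1 to 3 h for zld- and gd7 and of 2 to 3 h for cic6, and every chromosome 4 region overlapped a peak in at least 1 OreR library. Sites that open only in a mutant are therefore outside the tables. Coordinates are 1-based and refer to build dm6.

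Accessibility was measured by ATAC-seq, in which the transposase Tn5 inserts sequencing adapters into open chromatin. The study used embryos labelled zld-, gd7 and cic6 and wild-type embryos of the OreR (Oregon-R) stock. The labels name the genotypes only and give no stock background for the mutants. An effect of a mutation and a difference between stocks therefore cannot be told apart at any region. The gene behind zld- encodes Zelda, a maternal pioneer factor that opens enhancers at the start of zygotic transcription. The label gd7 refers to a maternal gene needed for the ventral gradient of Dorsal, and cic6 to the gene of the repressor Capicua. How zld- embryos were made is not given in the labels, and the deposited table names their comparison as RNAi and depletion, so some Zelda may remain. The zld-, gd7 and OreR embryos were collected in 4 windows of 30 min, which begin at 1, 1.5, 2 and 2.5 h of age. The cic6 embryos cover the windows that begin at 2 and 2.5 h. Each of the 14 groups has 3 libraries from whole hand-sorted embryos, with 400 embryos per library at 1 to 1.5 h, 100 at 1.5 to 2 h and 40 later, so age and embryo number cannot be told apart. Whole embryos mix all cell types, and fewer open cells and less opening per cell cannot be told apart.

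Chromosome 4 is known as the dot chromosome. Its gene-bearing arm carries marks of heterochromatin, including the protein HP1a, across much of its length, yet its genes are transcribed. The protein POF, which coats this chromosome, binds its active genes. Several regulators of embryonic patterning lie there, among them ci, the transcription factor of Hedgehog signalling, pan, the TCF factor of Wnt signalling, and the Pax6 genes ey and toy.

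The libraries differed in the length of their peak lists, from 6831 to 58137 peaks. The shortest list came from zld- replicate 3 at 1 to 1.5 h, which held 69 peaks on chromosome 4, against 261 and 467 in the other replicates of that group. A peak overlapped zld in 11 of 12 zld- and 12 of 12 OreR libraries, gd in 11 of 12 gd7 and 11 of 12 OreR libraries, and cic in 6 of 6 cic6 and 12 of 12 OreR libraries, so accessibility at these genes does not check the labels. The number of reads behind a list or a tested region was not used here and the depth is unknown.

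Tested regions were denser on chromosome 4 than on the other arms, while its protein-coding genes were sparser. There were 172 tested regions per Mb on chromosome 4, against 153 to 160 per Mb on the arms 2L, 2R, 3L, 3R and X, with the length taken to the end of the last peak. Protein-coding genes numbered 59.3 per Mb on chromosome 4 and 93.3 to 113 per Mb on the other arms. Of the 232 regions, 175 (75.4%) had their midpoint inside an annotated gene, against 63.5% to 73.4% on the other arms. Of the 80 protein-coding genes of chromosome 4, 76 overlapped a tested region, and 75 overlapped a peak in all 12 OreR libraries. The exceptions, named after their counts had been seen, were CG32006 with a peak in 1 of 12 OreR libraries, CG31997, yellow-h and Mpv17 with 8 each, and CG46466 with 11. The median over the regions of the mean normalized count, averaged over the 10 comparisons of a mutant and window with OreR, was 1112 on chromosome 4. It was 664 to 938 on the other arms. Single regions were ranked by the mean of their counts in the 3 tables. The regions of highest count were 4:58809-60922 by ci, with a mean of 5101, 4:501182-503295 in zfh2 with 4555, 4:592654-594767 by CG1909 with 4312, 4:1278868-1280981 beyond Cadps with 4309, and 4:834066-836179 by Sox102F with 4096. The genes zfh2 and Sox102F encode transcription factors.

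Over all libraries the chromosome 4 peaks merged into 685 intervals. A peak lay in 51 of these in all 42 libraries and in 54 in a single library. Of the 685 intervals, 368 overlapped a tested region and 317 did not, and 109 of these 317 had a peak in at least 21 libraries. Within its own list, chromosome 4 had a higher median fold enrichment than the rest in 41 of 42 libraries, and a wider median peak in 37 of 42. A larger share of its tested regions had a peak in 39 of 42 libraries.

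In wild type, chromosome 4 regions more often had a peak in the first window than regions elsewhere. A peak was present in all 12 OreR libraries at 176 of 232 regions (75.9%), against 63.1% of the 20703 regions elsewhere. In the first window, 83.2% of the chromosome 4 regions had a peak in all 3 OreR libraries, against 70.2% elsewhere. In the last window the shares were 93.5% and 88.8%. Regions without a peak in any OreR library at 1 to 1.5 h and with one in all 3 at 2.5 to 3 h were 3 of 232 (1.29%), against 2.55% elsewhere. They lay at 4:434328-436441 by lgs, a coactivator of Wnt signalling, at 4:448627-450740 in the kinase gene CaMKI and at 4:884745-886858 in unc-13, which primes synaptic vesicles. The first pair had peaks in all 3 libraries from 1.5 h on, and the region in unc-13 in 1, 2 and 3 libraries of the 3 later windows.

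The lead of chromosome 4 over the rest of the genome differed among the OreR windows. In single OreR libraries, the percentage of chromosome 4 regions with a peak exceeded that elsewhere by 7.98, 7.60 and 6.43 points at 1 to 1.5 h. It differed by 0.07, 0.23 and -0.59 points at 1.5 to 2 h, by 1.27, -0.68 and 0.05 at 2 to 2.5 h, and by 0.57, 5.46 and 1.95 at 2.5 to 3 h. All 3 libraries of the first window lay above the 9 later ones. The 4 window means had an SD of 3.43 points (exact permutation over 12 OreR libraries, p = 0.00123, adjusted over 4 measures 0.00494). The share of all peaks that lay on chromosome 4 also differed among windows. It was 1.08% ± 0.04, 0.94% ± 0.04, 1.01% ± 0.01 and 1.04% ± 0.05 (SD, n = 3 each), with exact permutation p = 0.00812 and an adjusted value of 0.0162. The number of chromosome 4 peaks (adjusted exact p 0.335) and their width relative to other peaks (adjusted exact p 0.130) did not pass. With all lists cut to 38663 peaks neither the lead (adjusted exact p 0.0962) nor the share (0.335) passed, while the relative width did (0.0467), as it did at a −log10 q of at least 5 (0.0334). Without OreR replicate 2 or 3 the adjusted exact p was 0.0952 and 0.114 for the lead and 0.114 and 0.267 for the share. The OreR lists held 38663 to 42882 peaks in the first window and 42841 to 56863 in the later ones, and the first window has the most embryos per library; the part of either in the result was not tested.

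The zld- and gd7 libraries had their widest mean leads in the first window too, and no peak measure separated a mutant from OreR after adjustment over 12 tests. The lead in detection was 12.8, 6.50 and 5.65 points in zld- libraries and 12.8, 7.08 and 11.9 points in gd7 libraries at 1 to 1.5 h. At 1.5 to 2 h it was 0.91, 0.46 and 0.97 points in zld- and 2.87, 8.62 and 3.16 in gd7. The tested regions are OreR peaks, and mean detection was lower in gd7 than in OreR on chromosome 4 (93.2% and 95.0%) and elsewhere (88.0% and 92.4%). A wider gd7 lead is thus a smaller shortfall on chromosome 4, not a gain. Averaged over windows, the gd7 lead was 5.17 points and the OreR lead 2.53 points, a difference of 2.64 points (exact permutation within windows, two-sided p = 0.0053, adjusted 0.0636, higher in 9 of 12 libraries). By window that difference was 3.24, 4.98, 0.69 and 1.64 points. The corresponding difference was 1.36 points in zld- (adjusted exact p 0.240, higher in 9 of 12 libraries) and 1.79 points in cic6 (adjusted exact p 0.240, higher in 6 of 6). Chromosome 4 peaks numbered 428 in zld- and 489 in OreR on average (adjusted exact p 0.240), 464 in gd7 against the same OreR mean (adjusted exact p 0.240; 1.00 more than in OreR with lists of equal length), and 521 in cic6 against 503 in OreR of the same windows (adjusted exact p 0.600). The smallest p of an exact permutation test within 1 window, with 3 libraries against 3, is 0.1. Without gd7 replicate 1 the gd7 difference was 3.03 points (adjusted exact p 0.036), and without OreR replicate 1 the gd7 number of peaks minus that of OreR was -45.9 (adjusted exact p 0.0474). Where a peak must cover 0.5 of the region, the lead minus that of OreR turned negative in every mutant, at -1.49 points in zld-, -0.30 in gd7 and -3.00 in cic6. At a −log10 q of at least 5 it was -1.07 points in zld-.

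**Figure D1:**
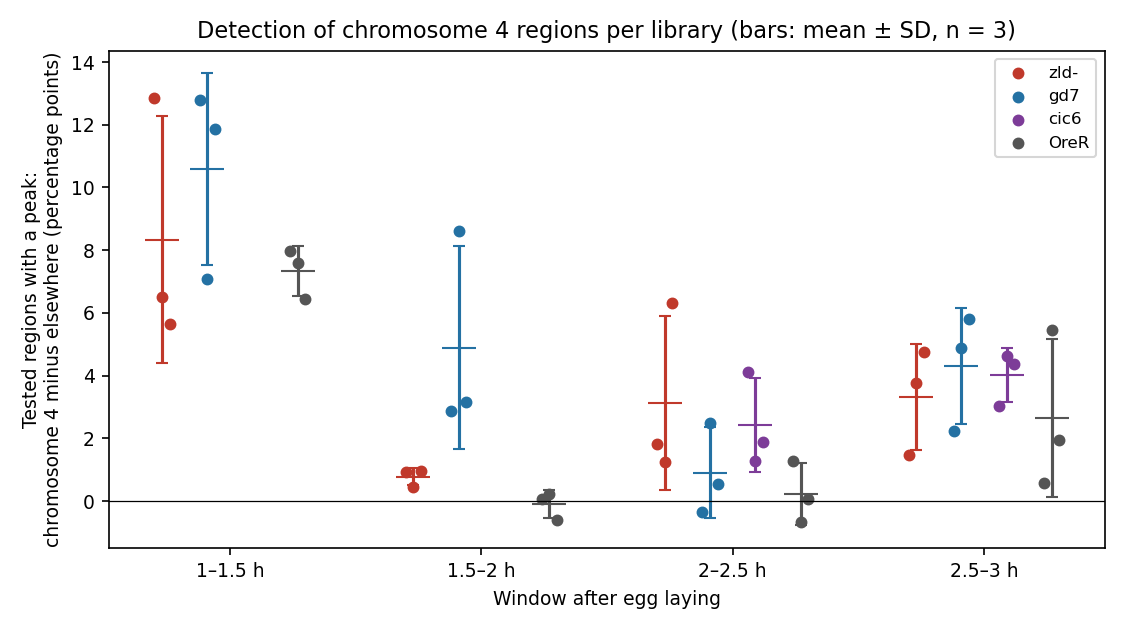
Percentage of tested regions with a peak on chromosome 4 minus that elsewhere, in points (vertical axis), for each library by window (horizontal axis). Dots are libraries and bars the mean ± SD of 3. The OreR libraries of 1 to 1.5 h lie between 6.43 and 7.98 points, above all later OreR libraries.

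Signal at the tested regions comes from the authors' deposited tables, the source of every regional log2 fold change (mutant over OreR), standard error (SE) and adjusted p below other than those of the tests between windows. A region is called at an adjusted p under 0.05. In zld- embryos of 1 to 1.5 h, 48 chromosome 4 regions were lower and 21 higher (20.7% and 9.05%), against 15.6% and 10.4% of all tested regions. This group holds the library with the shortest peak list (6831 peaks). Its part in the calls and fold changes of this window was not tested. At 1.5 to 2 h, 3 were lower and 13 higher, against 7.49% and 4.66% of all. At 2 to 2.5 h the counts were 8 lower and 22 higher, against 13.4% and 7.82%. At 2.5 to 3 h they were 36 lower and 26 higher, against 17.1% and 14.0%. The share of chromosome 4 called lower was thus 1.29% and 3.45% in the middle windows, below that of all regions. In the outer windows it was 20.7% at 1 to 1.5 h, above that of all regions, and 15.5% at 2.5 to 3 h, below it. After centring of the log2 values on their genome-wide median, the second window had 8 lower and 11 higher regions, and after removal of their dependence on mean normalized count (the trend) 9 and 11.

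In gd7 embryos the calls were few except in 1 window. At 1 to 1.5 h, 10 regions were lower and 9 higher, against 4.01% and 4.47% of all regions. At 1.5 to 2 h, 3 were lower and 79 higher (34.1%), against 7.47% and 7.86% of all. With this trend removed, 5 were lower and 43 higher. At 2 to 2.5 h, 3 were lower and 10 higher, against 3.45% and 2.09% of all (5 and 10 without the trend). At 2.5 to 3 h, 4 were lower and 11 higher, against 8.19% and 3.81% of all. In cic6 embryos, 21 were lower and 58 higher at 2 to 2.5 h, against 22.8% and 26.2% of all, and 16 lower and 30 higher at 2.5 to 3 h, against 13.7% and 14.0% of all. The cic6 higher calls depended on the trend: without it, 23 were lower and 15 higher in the earlier window, and 16 and 18 in the later one. At the regions followed singly below, 84 of 133 calls were kept without the trend between the chromosome's start and the end of its last gene, Cadps, and 73 of 73 beyond it. The lost calls lay in zld- at 1 to 1.5 h and 2.5 to 3 h, in gd7 at 1.5 to 2 h and 2.5 to 3 h, and in cic6.

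**Figure D2:**
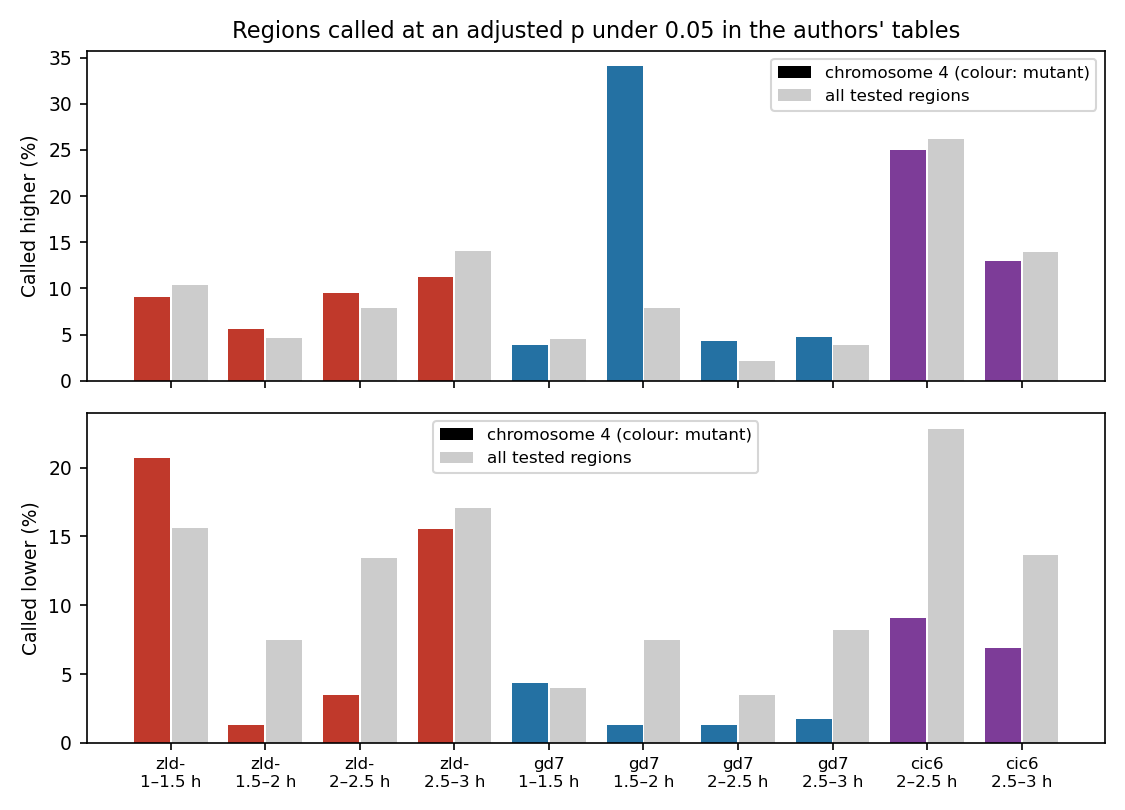
Percentage of tested regions called higher (upper panel) and lower (lower panel) than OreR, for chromosome 4 (coloured bars) and all tested regions (grey bars), in the 10 comparisons along the horizontal axis. The chromosome 4 share of higher calls in gd7 at 1.5 to 2 h, 34.1%, is the tallest bar.

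In some comparisons most regions of chromosome 4 lay on one side of 0. In gd7 at 1.5 to 2 h the median log2 fold change of its regions was 0.34, and 213 of 232 were above 0, while the medians of the other arms lay between -0.03 and 0.01. With the trend removed the median was 0.27. In gd7 at 1 to 1.5 h the chromosome 4 median was -0.15, with 57 of 232 above 0, and the other arms lay between 0.01 and 0.10. The zld- medians were -0.12, 0.04, 0.11 and -0.17 in the 4 windows. In the first and last of these the chromosome 4 median was below those of all 5 other arms. It was above all 5 in zld- at 2 to 2.5 h, in gd7 from 1.5 h on and in cic6 at 2 to 2.5 h. The margin was small in some of these: in gd7 at 2 to 2.5 h the median was 0.03 on chromosome 4 and 0.02 on the nearest arm. With the trend removed, the medians became -0.04 in zld- at 1.5 to 2 h, -0.01 in gd7 at 2 to 2.5 h, and -0.07 and -0.04 in cic6, which had 0.06 and 0.02 before. All comparisons of a window share the OreR libraries. Each median is a description of 1 chromosome over 3 libraries a group, with no test of the chromosome as a whole.

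**Figure D3:**
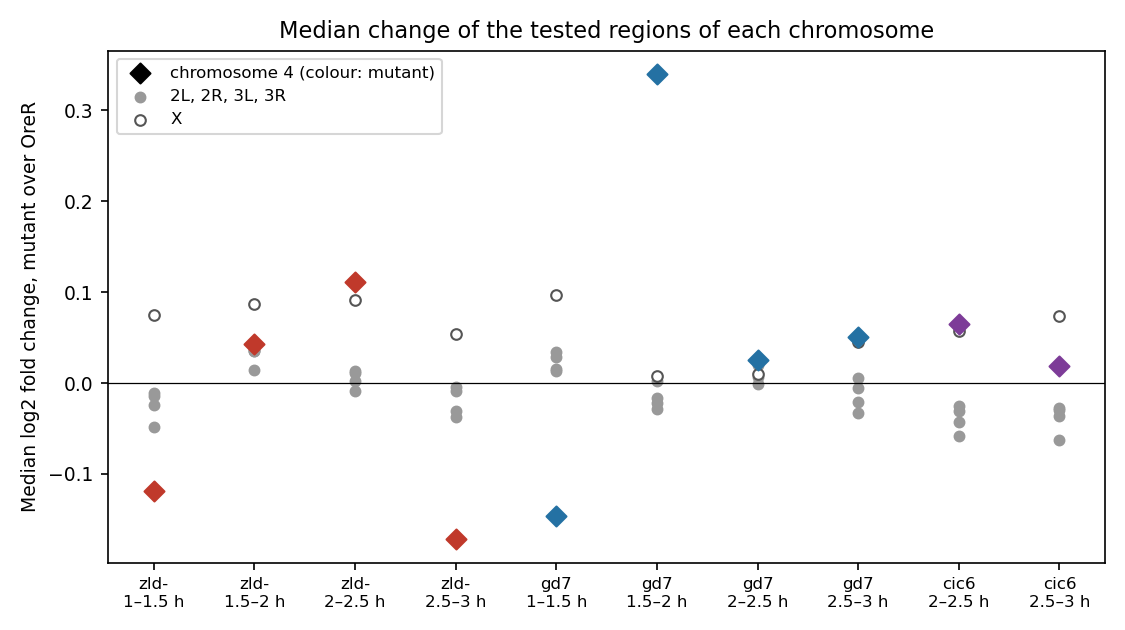
Median log2 fold change of mutant over OreR (vertical axis) of the tested regions of chromosome 4 (coloured diamonds), the autosomal arms (grey dots) and X (open circles), in the 10 comparisons along the horizontal axis. Chromosome 4 stands above the other arms in gd7 at 1.5 to 2 h, at 0.34, and below them in gd7 at 1 to 1.5 h, at -0.15, and in zld- at 1 to 1.5 h and 2.5 to 3 h, at -0.12 and -0.17.

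The rise in gd7 at 1.5 to 2 h ran along the whole chromosome. In 4 successive stretches of 58 regions each, the medians were 0.33, 0.34, 0.28 and 0.43. At the 49 regions whose midpoint lay within 500 bp of a gene end the median was 0.71, and at the other 183 it was 0.28. Elsewhere in the genome these medians were 0.20 at 5044 regions near gene ends and -0.07 at the other 15659. With the trend removed they were 0.39 and 0.22 on chromosome 4 and 0.03 and -0.03 elsewhere. In zld- at 1 to 1.5 h the near-end regions of chromosome 4 had a median of -0.45 and the others -0.07, against -0.11 and 0.03 elsewhere, and at 2.5 to 3 h -0.35 and -0.09, against -0.01 and -0.01 elsewhere. Without the trend the near-end medians of chromosome 4 were -0.24 and -0.28 in these windows. The 116 regions of higher mean normalized count had a median of 0.48 and the 116 of lower count 0.24 in gd7 at 1.5 to 2 h, and -0.37 and 0.01 in zld- at 1 to 1.5 h.

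The change of the gd7 effect between the first windows was tested region by region (a Wald test on the 2 deposited log2 fold changes and their SEs, adjusted over all regions). The difference of 1.5 to 2 h minus 1 to 1.5 h was higher at 20 chromosome 4 regions and lower at none, against 0.898% and 0.287% of all regions. The median difference was 0.45 on chromosome 4 and -0.06 elsewhere. The widest difference was at 4:1231395-1233508 in Cadps, a gene of dense-core vesicle release, where the log2 fold change was -0.37 (SE 0.20) and then 0.84 (SE 0.19), a difference of 1.21 (adjusted p 0.00486). Next came 4:52865-54978 in ci with -0.44 and 0.76 (difference 1.20, adjusted p 0.0241) and 4:445071-447184 in CaMKI with -0.26 and 0.90 (difference 1.16, adjusted p 0.0085). These 3 regions were picked by size after the values had been seen. Between 1.5 to 2 h and 2 to 2.5 h no chromosome 4 region differed in gd7, nor did any of all regions (0.00%), although the chromosome 4 median difference was -0.31. In zld- the effect at 1.5 to 2 h was lower than at 1 to 1.5 h at 5 chromosome 4 regions and higher at 9, against 1.67% and 5.91% of all, and with the trend removed the count in both directions was 9. Between 1.5 to 2 h and 2 to 2.5 h no chromosome 4 region differed in zld- (0.0191% lower and 0.00% higher among all), and between 2 to 2.5 h and 2.5 to 3 h none did in zld- (0.186% and 0.306% of all) or gd7 (0.0334% and 0.00%). From the first to the last window, 3 chromosome 4 regions were lower and 5 higher in zld-, against 4.76% and 5.44% of all, 1 was lower and none higher in gd7 (0 and 0 after centring or removal of the trend), against 0.793% and 0.306%, and none differed in cic6, against 0.115% and 0.0334%.

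Beyond the end of Cadps, the last annotated gene of the chromosome at 4:1271759, lie 9 tested regions, from 4:1278868-1280981 to 4:1335298-1337411. These held the strongest rises on the chromosome. In zld- embryos 9, 8, 9 and 9 of the 9 were called higher in the 4 windows, against 10.4%, 4.66%, 7.82% and 14.0% of all regions, with median log2 fold changes of 1.94, 1.40, 1.59 and 1.56. The other 223 regions had medians of -0.13, 0.04, 0.11 and -0.19. In gd7 embryos 6, 4, 6 and 6 of the 9 were called higher, against 4.47%, 7.86%, 2.09% and 3.81% of all regions, and 2 lower at 1.5 to 2 h. At that age 75 of the other 223 chromosome 4 regions were also called higher. In cic6 embryos 5 and 5 were called higher, against 26.2% and 14.0% of all, and 2 and 2 lower. The distal regions thus made up 9 of the 21 higher calls in zld- at 1 to 1.5 h and 6 of the 9 in gd7 at that age.

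The region 4:1332000-1334113, of a low mean normalized count (162), rose furthest. In zld- its log2 fold changes were 3.06 (SE 0.30), 2.59 (SE 0.27), 2.84 (SE 0.27) and 3.31 (SE 0.28) in order of age. In gd7 they lay between 1.79 and 2.40, and in cic6 they were 2.38 and 2.31, all called. The region 4:1308271-1310384 was called in all 10 comparisons, with 2.06, 1.44, 1.58 and 1.53 in zld-, 2.26, 1.75, 2.41 and 2.02 in gd7, and 1.47 and 1.28 in cic6. All 3 mutants are compared with the same OreR libraries, so these values are not independent of each other. Whether they reflect the mutations or a difference of OreR from the mutant stocks cannot be told apart. At 4:1301751-1303864 the zld- values were 2.196, 1.47, 1.90 and 2.09 in order of age, all called. In gd7 it had 0.70, 0.35, 0.79 and 0.56, of which the 0.35 was not called, and in cic6 1.27 and 1.57. Of the other regions called in every zld- window, 4:1278868-1280981 with 2.12, 1.40, 1.82 and 1.98 and 4:1294419-1296532 with 1.82, 0.93, 1.43 and 1.56 were called in neither window of cic6.

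Other distal regions went opposite ways in the mutants. The region 4:1284658-1286771 was called higher in all zld- windows (0.74, 0.53, 0.47 and 0.81) and lower in gd7 at 1.5 to 2 h (-0.82) and in cic6 (-0.57 and -0.53). The region 4:1317857-1319970 had 0.75, 0.37, 0.46 and 0.64 in zld-, of which the 0.37 was not called, and -1.19 and -1.19 in cic6. The last region, 4:1335298-1337411, was called higher in all zld- windows (1.94, 1.67, 1.86 and 2.13) and in both of cic6 (0.66 and 0.48), and lower in gd7 at 1.5 to 2 h (-0.75).

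Peak lists and fold changes did not always go together at this end. At 4:1284658-1286771 a peak was listed in 8 of 12 zld-, 0 of 12 gd7, 3 of 6 cic6 and 12 of 12 OreR libraries, although the deposited fold change in zld- was positive. At 4:1292135-1294248, called higher in all 10 comparisons (1.11 to 1.49 in zld-, 1.33 to 1.68 in gd7, 0.66 and 0.51 in cic6), a peak was listed in 0 of 12 zld-, 5 of 12 gd7, 1 of 6 cic6 and 6 of 12 OreR libraries. The remaining distal regions had a peak in at least 10 of 12 libraries of zld-, gd7 and OreR and in all 6 of cic6. Their median fold enrichment was lower in zld- than in OreR at 4:1317857-1319970 (3.55 and 4.23), 4:1332000-1334113 (2.28 and 2.84) and 4:1335298-1337411 (2.84 and 4.10). It was similar at 4:1294419-1296532 (5.32 and 5.49) and 4:1308271-1310384 (3.54 and 3.59). At 4:1278868-1280981 (8.68 and 6.26) and 4:1301751-1303864 (3.84 and 3.49) it was higher in zld-. The number of peaks beyond Cadps per library was 15 to 30 in zld- (median 26), 21 to 31 in gd7 (median 27), 25 to 31 in cic6 (median 28) and 14 to 28 in OreR (median 23), so the groups overlapped.

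**Figure D4:**
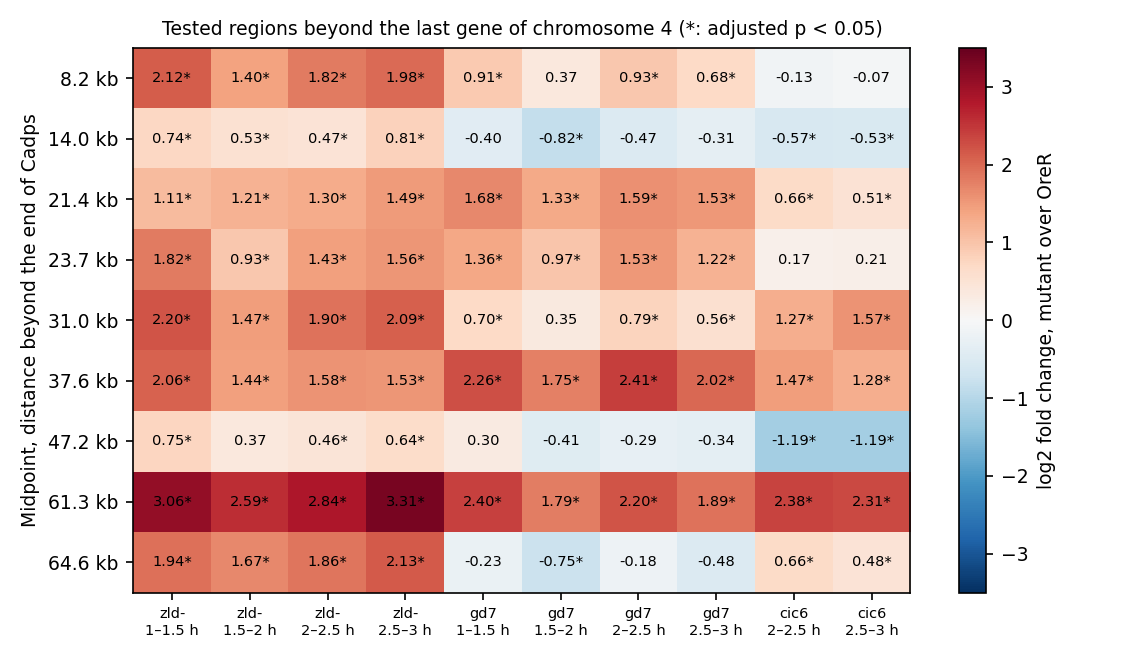
Log2 fold change of mutant over OreR (colour and number) at the 9 tested regions beyond Cadps (rows, with the distance of the midpoint from the end of Cadps in kb) in the 10 comparisons (columns). Stars mark adjusted p under 0.05; the row at 61.3 kb holds the strongest rises, up to 3.31 in zld-.

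**Figure D5:**
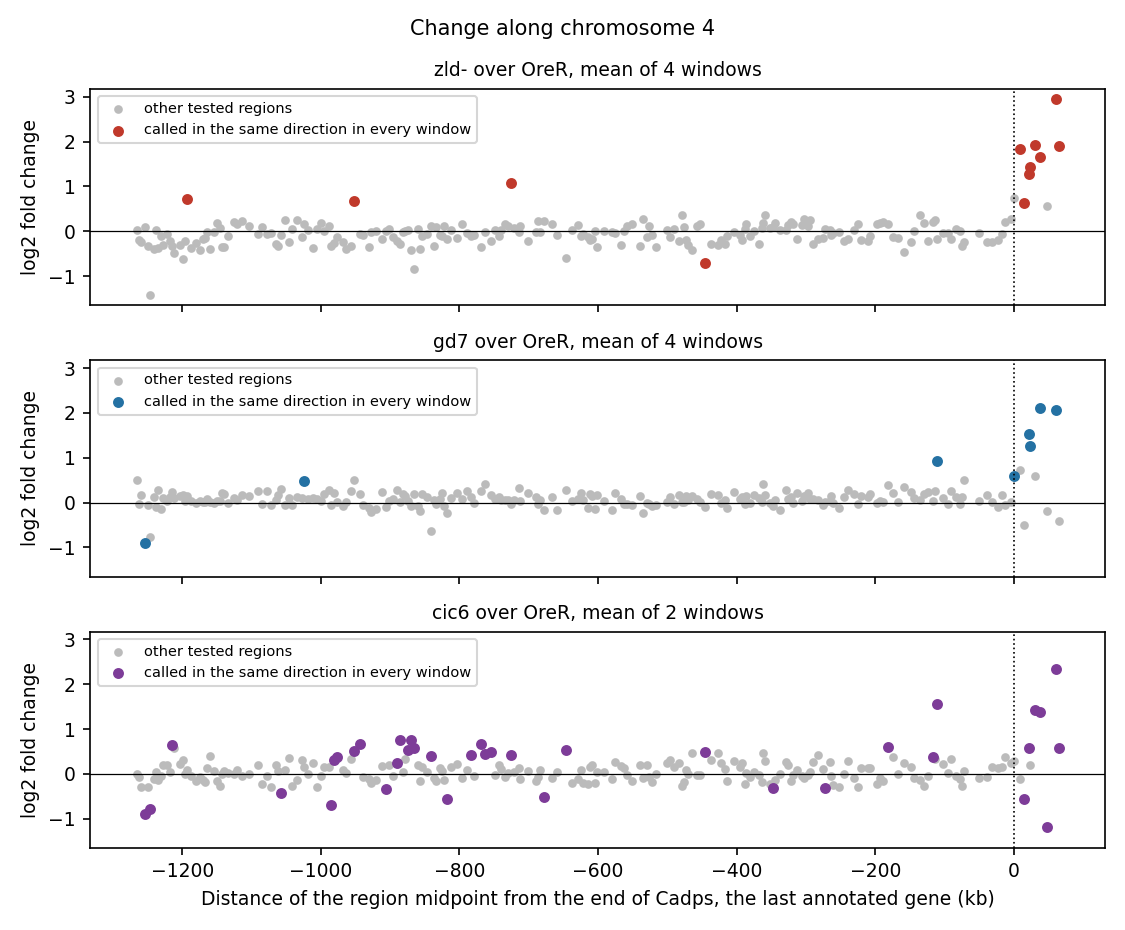
Mean log2 fold change over the windows of each mutant against OreR (vertical axis) at the 232 tested regions by distance from the end of Cadps in kb (horizontal axis; dotted line at 0). Coloured dots were called in the same direction in every window, 12 regions in zld-, 8 in gd7 and 37 in cic6.

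At the other end of the chromosome, 4:24616-26729 overlaps the end of the pseudogene CR32010. The nearest protein-coding gene is PlexB, a semaphorin receptor gene, with the pseudogene CR32009 in between. This region was the only one lower in some window of every mutant with none higher and a mean below 0 in each. In zld- its log2 fold changes were -1.41 (SE 0.48), -1.30 (SE 0.48), -1.37 (SE 0.47) and -1.63 (SE 0.47), of which the second was not called (adjusted p 0.0505). In gd7 they were -0.85, -0.43, -0.90 and -0.86, with the second not called, and in cic6 -0.76 and -0.81. A peak overlapped it in 7 of 12 zld-, 9 of 12 gd7, 2 of 6 cic6 and 10 of 12 OreR libraries. A merged peak at 4:24045-25360 was listed in 0 of 12 zld-, 0 of 12 gd7 and 11 of 12 OreR libraries. Over the libraries of cic6 and the OreR of its windows, this interval, there 4:24231-25360, had a peak in 0 of 6 cic6 and 6 of 6 OreR libraries. Also in this stretch, 4:17389-19502 in CR32010 was called lower in every gd7 window (-0.86, -0.78, -0.88 and -1.05) and in both cic6 windows (-0.89 and -0.91). In zld- it was called in none (0.28, 0.04, 0.19 and -0.10).

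Outside the distal end, few regions were called in the same direction in all 4 windows. In zld- 1 region was lower throughout and 3 of the 11 higher ones lay outside it, against 4.31% lower and 1.98% higher throughout among all regions. The lower one, 4:824582-826695 in Sox102F, had -0.63 (SE 0.15), -0.71 (SE 0.14), -0.74 (SE 0.14) and -0.75 (SE 0.14). It was called higher in cic6 (0.50 and 0.47) and lower in gd7 at 1 to 1.5 h (-0.42). The cic6 call of 0.50 was lost with the trend removed. The higher ones were 4:544835-546948 in Tdg, which encodes a DNA glycosylase, with 0.97, 1.11, 1.06 and 1.20 (SE 0.09 to 0.10), 4:77749-79862 in pan with 0.87, 0.70, 0.68 and 0.66, and 4:318943-321056 in Rnf11 with 0.55, 0.74, 0.84 and 0.55. The region in Rnf11, which encodes a RING finger protein, was also called in gd7 from 1.5 h on (0.74, 0.64 and 0.49, the last not with the trend removed) and in cic6 (0.57 and 0.45). The third region named for zld- by number of windows, 4:405432-407545 by dati, a zinc-finger gene, had -1.09, -0.50, -0.72 and -1.01, with the second not called. In cic6 it was called higher (0.74 and 0.40), and both of these calls were lost with the trend removed.

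In gd7, by the authors' deposited table, 1 region was lower and 7 were higher in all 4 windows, against 1.96% and 0.955% of all regions. Outside the end beyond Cadps the strongest was 4:1159614-1161727, where CG32017 and the kinesin gene Kif3C overlap, with 0.87, 0.90, 0.97 and 0.99 (SE 0.11 in each window). It rose further in cic6, with 1.62 (SE 0.11) and 1.50 (SE 0.10). In zld- it was called lower in the last pair of windows (-0.34 and -0.30). A region at the end of Cadps, 4:1271384-1273497, had 0.57, 0.55, 0.56 and 0.73 in gd7, all called, of which the 0.55 was lost with the trend removed. Among the lower regions of gd7, 4:430427-432540 in the noncoding gene CR44024 had -0.99, -0.14, -0.58 and -0.79, called in the first and last window. It was called higher in cic6 (0.45 and 0.36), and both calls were lost with the trend removed.

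In cic6, by the authors' deposited table, 11 regions were lower and 26 higher in both windows, against 10.8% and 11.8% of all regions. The named higher regions outside the distal end and the Kif3C region were 4:385172-387285 in dati (0.92 and 0.61) and 4:400185-402298 by dati (0.77 and 0.74). The region in dati was called lower at 1 to 1.5 h in zld- (-0.79) and in gd7 (-0.58). The one by dati was called lower in zld- in 3 windows (-0.39, -0.45 and -0.59) and in gd7 in none. Its cic6 value of 0.77 and its zld- value of -0.39 were no longer called with the trend removed. The named lower regions besides those above were 4:284991-287104 in Syt7, a synaptotagmin gene (-0.76 and -0.62), and 4:453082-455195 by CaMKI (-0.39 and -0.72). At this region by CaMKI a peak was listed in 6 of 6 cic6 libraries, with the authors' fold enrichment at 2.91 to 4.30, and in 5 of 6 OreR libraries of the same windows, at 1.67 to 2.49, while the log2 fold changes were negative. Fold enrichment was higher across the cic6 lists as a whole. The mean of the library medians outside chromosome 4 was 2.73 and 2.66 in the cic6 windows, against 2.09 and 2.24 in OreR. The Syt7 region was also called lower in zld- at 1.5 to 2 h (-0.36) and 2.5 to 3 h (-0.48).

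Genes of 4 roles were then followed through the tested regions that overlap them, as counts of the authors' calls. The 16 genes of transcription and chromatin had 63 regions. In zld- 17, 1, 2 and 11 of these were lower (26.98%, 1.59%, 3.17% and 17.5%) and 2, 2, 3 and 5 higher in order of age. Of all chromosome 4 regions 20.7%, 1.29%, 3.45% and 15.5% were lower, and of all tested regions 15.6%, 7.49%, 13.4% and 17.1%. The list's higher shares were 3.17%, 3.17%, 4.76% and 7.94%. Those of chromosome 4 were 9.05%, 5.60%, 9.48% and 11.2%, and those of all tested regions 10.4%, 4.66%, 7.82% and 14.0%. The list's zld- medians were -0.20, 0.04, 0.11 and -0.16 beside -0.12, 0.04, 0.11 and -0.17 for all of chromosome 4. In gd7 at 1.5 to 2 h 17 of the 63 were higher (26.98%, against 34.1% of chromosome 4 and 7.86% of all) and none lower. In cic6 19 were higher (30.2%, against 25.0% and 26.2%) and 2 lower (3.17%, against 9.05% and 22.8%) at 2 to 2.5 h. In the last cic6 window 8 were higher (12.7%, against 12.9% and 14.0%) and 3 lower (4.76%, against 6.90% and 13.7%). After the trend was removed, 13 were lower in the first zld- window, 7 higher in gd7 at 1.5 to 2 h, and 3 and 4 higher in cic6. The region of highest count in zfh2 had -0.83, 0.04, -0.09 and -0.49 in zld-, of which the first was called, 0.74 in gd7 at 1.5 to 2 h, and 0.83 and 0.51 in cic6, all 3 called. None of these 4 calls was kept with the trend removed.

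The 10 signalling genes had 21 regions, of which 5 were lower in zld- at 1 to 1.5 h and none higher (median -0.18), while 9 were higher and none lower in gd7 at 1.5 to 2 h (median 0.38). The 5 are 23.8%, against 20.7% of chromosome 4 and 15.6% of all regions, and the 9 are 42.9%, against 34.1% and 7.86%. With the trend removed 4 were lower in that zld- window and 3 higher in that gd7 window. The region by mav, which encodes a ligand of the TGF-beta family, 4:625050-627163, had -1.14 (SE 0.19), -0.31, -0.34 and -0.63 in zld-, the first and last called. It was called higher in gd7 at 1.5 to 2 h (0.77) and in cic6 (0.64 and 0.41), and these 3 calls were lost with the trend removed. The region 4:209145-211258 at Crk, an adaptor of receptor kinases, had -0.80 in zld- at 1 to 1.5 h and 0.75 in gd7 at 1.5 to 2 h, both called. Its neighbour 4:212689-214802 was called higher in gd7 at 1.5 to 2 h (0.45) and lower in cic6 (-0.46 and -0.39). The gd7 calls of both Crk regions were lost with the trend removed.

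The 7 genes of general cell functions had 15 regions. In zld- 2, 0, 0 and 2 were lower and 1 in each window was higher, and in gd7 at 1.5 to 2 h 5 were higher (median 0.34). The shares were 13.3% lower in the outer zld- windows, against 20.7% and 15.5% of chromosome 4 and 15.6% and 17.1% of all regions. The higher share was 6.67% in each zld- window, against 10.4%, 4.66%, 7.82% and 14.0% of all. In gd7 33.3% were higher, against 34.1% of chromosome 4 and 7.86% of all. Without the trend, none was lower in zld- and 1 was higher in gd7 at 1.5 to 2 h. At the ribosomal protein gene RpS3A, 4:66931-69044, the values were -0.63 in zld- at 1 to 1.5 h and 0.74 in gd7 at 1.5 to 2 h, both called. At 4:306776-308889 in Rad23, a DNA repair gene, only zld- at 2.5 to 3 h was called (-0.56). At 4:556335-558448, by Tdg and Pur-alpha, zld- at 1 to 1.5 h (-0.60) and gd7 at 1.5 to 2 h (0.85) were called. The calls given here for RpS3A, Rad23 and the region by Pur-alpha were all lost with the trend removed.

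The 8 nerve and muscle genes had 41 regions. In zld- 6, 2, 2 and 9 were lower and 3, 1, 5 and 3 higher, and in gd7 at 1.5 to 2 h 15 were higher (36.6%, against 34.1% of chromosome 4 and 7.86% of all) and none lower (median 0.37). The zld- counts of lower regions are 14.6%, 4.88%, 4.88% and 21.95%, against 20.7%, 1.29%, 3.45% and 15.5% of chromosome 4. Of all tested regions 15.6%, 7.49%, 13.4% and 17.1% were lower. The higher counts are 7.32%, 2.44%, 12.2% and 7.32%, against 10.4%, 4.66%, 7.82% and 14.0% of all. In cic6 16 were higher (39.0%, against 25.0% and 26.2%) and 2 lower (4.88%, against 9.05% and 22.8%) at 2 to 2.5 h (median 0.18). The counts of higher regions were 11 in that gd7 window and 5 in that cic6 window with the trend removed. At 4:909230-911343 in unc-13 the called values were 0.60 in cic6 at 2 to 2.5 h and 0.75 in gd7 at 1.5 to 2 h, and both were lost with the trend removed. The gd7 medians of all 4 roles at 1.5 to 2 h, 0.36, 0.38, 0.34 and 0.37, lay near that of the whole chromosome.

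Names of known enhancers are attached to some regions in the authors' deposited table for zld-. The one named ci_1.2prx lies at 4:55428-57541 and had -0.80 in zld- at 1 to 1.5 h, 0.88 in gd7 at 1.5 to 2 h, and 0.77 and 0.50 in cic6, all called. The one named ci_1.3dis, at the region of highest count, had -0.85 and -0.61 in zld- at 1 to 1.5 h and 2.5 to 3 h and 0.83 in gd7 at 1.5 to 2 h, all called. The enhancer ey_UE0.9 at 4:703443-705556 was called lower in zld- at 1 to 1.5 h (-0.75). All these calls at ci_1.2prx, ci_1.3dis and ey_UE0.9 were lost with the trend removed. The enhancer ey_5D11 at 4:707942-710055 was called lower in gd7 at 1 to 1.5 h (-0.60), and the one named VT51763.1, also in ey, at 4:712687-714800 had -0.29 there. Both calls were kept with the trend removed. The region of sv_SME at 4:1096049-1098162, in the Pax2 gene sv, was called higher in gd7 at 1.5 to 2 h (0.77) and in cic6 at 2 to 2.5 h (0.51), with or without the trend.

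Few merged peak intervals were seen mainly in a mutant or mainly in OreR, with each mutant compared with OreR alone. An interval was counted for a genotype with a peak in 10 or more of its 12 libraries (cic6, 5 or more of 6) and in no more than 2 of 12 (1 of 6) of the other. Of 648 intervals on chromosome 4, 3 (0.463%) were counted for zld- and 4 (0.617%) for OreR, against 0.116% and 0.524% of 74298 intervals on all chromosomes. All 3 zld- intervals lay beyond Cadps, at 4:1288505-1289031 and 4:1289351-1289799 with 11 of 12 zld- and 0 of 12 OreR libraries each, and at 4:1341079-1341561 with 10 of 12 and 0 of 12. The intervals of OreR were the one by CR32010 above, 4:37383-38074 in PlexB with 1 of 12 zld- and 12 of 12 OreR libraries, 4:73105-73394 in pan and 4:914185-914746 by eIF4G1, a translation factor gene, both with 2 of 12 and 11 of 12.

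Of 659 intervals in gd7 and OreR, 4 (0.607%) were counted for gd7 and 2 (0.303%) for OreR, against 0.171% and 0.352% of 76447 on all chromosomes. The interval 4:1289395-1289813 had a peak in 12 of 12 gd7 and 0 of 12 OreR libraries, 4:1290327-1291209 in 11 and 1, 4:1331666-1332156 in 12 and 1, and 4:22660-23834 in CR32010 in 10 and 2. The 2 intervals of OreR were the one by CR32010 and the one by eIF4G1, which had a peak in 2 of 12 gd7 and 11 of 12 OreR libraries. Of 626 intervals in cic6 and OreR, 11 (1.76%) were counted for cic6 and 9 (1.44%) for OreR, against 1.04% and 1.32% of 70683 on all chromosomes. Those with 6 of 6 cic6 and 0 of 6 OreR libraries included 4:29588-30155 in the pseudogene CR32009, 4:46548-46762 by ci, 4:506788-507075 in zfh2 and 4:1249047-1249275 in Cadps. Beyond Cadps, 4:1281931-1282222, 4:1289471-1289799 and 4:1306191-1306644 had the same counts. The interval 4:1289471-1289799 overlaps 4:1289351-1289799 of zld- and 4:1289395-1289813 of gd7. At this site a peak was thus frequent in every mutant and listed in no OreR library. The gd7 interval 4:1290327-1291209 also recurred in cic6, as 4:1290451-1291195 with 6 of 6 cic6 and 1 of 6 OreR libraries. In the opposite direction, 4:37385-38014 in PlexB had a peak in 0 of 6 cic6 and 6 of 6 OreR libraries. The intervals 4:331496-331930 and 4:349078-350022 in PMCA, a calcium pump gene, 4:430227-431143 in CR44024 and 4:777006-778202 by MED26, a Mediator gene, each had a peak in 1 of 6 cic6 and 6 of 6 OreR libraries.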

How the data were processed

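The 42 libraries were grouped by genotype and window as their titles state. Nothing in the labels says whether replicates came from separate collections, so p-values measure the spread between these libraries only. The members and lists were chosen with earlier results of these data known.

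The authors called peaks on each library separately, per the peak names in the files. For every peak the authors deposited a score, a fold enrichment as a ratio over background, and 2 −log10 columns (p-value, q-value). No deposited −log10 q fell below 1.30. The submitters' processing notes name dm6, Bowtie2 2.3.5.1, Picard 2.23.8, MACS2 2.2.7.1 and DESeq2. These sources give no settings, nor any shift of reads for Tn5. In the 3 deposited tables each region has the authors' mean normalized count (a signal, the same in every window), log2 fold change, standard error, test statistic (a score), p-value and adjusted p-value. No counts per library were used, so edgeR, foreseen for counts, was not run, and depth and counting intervals are unknown. A p-value was missing at 7 regions in every gd7 window, 0 of them on chromosome 4.

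Peaks and regions overlapped at 1 bp or more. Peak measures were compared by exact permutation within windows, with Benjamini-Hochberg adjustment over 12 tests of mutants and 4 of OreR windows. Differences between windows were tested by a Wald test on pairs of deposited log2 values and standard errors. Simulated data checked the Wald test with the trend removed within a single window, not the test between windows. A RefSeq table of Release 6, which lacks strand, supplied gene names, matched by symbol or synonym (Thd1 as Tdg), and a region took the name of the genes at its midpoint or of the nearest protein-coding gene. Regions named were up to 6 per mutant and direction called in every window, or 3 called in most windows, by mean size, the 5 of highest count, and up to 4 per gene list. Alternatives were equal list lengths, a −log10 q of at least 5, coverage of 0.5, a log2 size of at least 1, centring, removal of the trend with mean count by lowess (fraction 0.3), the replicate block, and leaving out replicates. Promoter sequences and motifs were not used here. Python 3.11.15, numpy 2.4.6, pandas 2.3.3, scipy 1.17.1, statsmodels 0.14.6 and matplotlib 3.10.9 were used.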

Additional observations from a re-analysis of the deposited data

Results flagged for a closer look

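The effect of a mutant differed between windows at some chromosome 4 regions, by the test of the difference itself. The zld- effect differed between 1 to 1.5 h and 2.5 to 3 h at 8 regions, 3 lower and 5 higher at the later age, against 4.76% and 5.44% of all regions. One of them, 4:1308271-1310384 beyond Cadps, changed by -0.53 (adjusted p 0.0293). The zld- effect differed between 1 to 1.5 h and 1.5 to 2 h at 14 regions, 5 lower and 9 higher at the later age, against 1.67% and 5.91% of all regions (9 regions with the trend removed), with the widest rises at sv and Cals (1.08), Sox102F (0.96) and zfh2 (0.88) and the deepest falls beyond Cadps (-0.89 and -0.73). The gd7 effect differed between 1 to 1.5 h and 1.5 to 2 h at 20 regions, all higher at the later age, and between 1 to 1.5 h and 2.5 to 3 h at 1 region, lower at the later age, which was lost after centring or removal of the trend.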

How the results depend on the processing

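The block of replicate numbers changed no call: paired by replicate number (replicate block), the adjusted exact p was 0.246, 0.211 and 0.614 for the number of peaks, 0.348, 0.240 and 0.412 for their share, 0.240, 0.117 and 0.240 for the lead in detection and 0.408, 0.684 and 0.240 for relative width in zld-, gd7 and cic6. Equal numbers do not pair the libraries: 3 of 30 pairs had a correlation over 0.1 (range -0.06 to 0.18), and 14 of 30 mutant libraries correlated best with their own number.

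For equal length, lists were cut to 6831 peaks in the zld- comparison, the length of its shortest list. The cut was at 29989 peaks for gd7, 42055 for cic6 and 38663 for the OreR windows. With these lists, the zld- share minus OreR was -0.00488 points, the gd7 number minus OreR 1.00 and the zld- width minus OreR 34.2 bp. The SD of OreR windows was then 0.0482 points for the share, 2.25 points for the lead and 33.8 bp for width (adjusted exact p 0.0467). At a −log10 q of at least 5, zld- minus OreR was -0.0206 points for the share, -1.07 points for the lead and 1.33 bp for width, and the OreR width SD was 18.6 bp (adjusted exact p 0.0334). With coverage of 0.5 the lead minus that of OreR was -1.49, -0.30 and -3.00 points in zld-, gd7 and cic6. Without the first window the zld- width difference was 0.50 bp. Leaving out 1 replicate at a time gave -45.9 to -11.4 peaks, 2.34 to 3.03 points of lead and -2.25 to 9.19 bp in gd7, -11.7 to 41.8 peaks in cic6, and window SDs of 0.0483 to 0.0756 points, 3.38 to 3.57 points and 14.9 to 27.3 bp in OreR. Without the shortest list, zld- minus OreR was -36.2 peaks (adjusted exact p 0.333). The cause of these changes was not tested.

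At an absolute log2 fold change of at least 1, called lower were 5, 0, 1 and 3 regions in zld-, 0, 0, 0 and 1 in gd7 and 1 and 1 in cic6, and called higher 8, 7, 8 and 8, 4, 3, 4 and 4, and 4 and 4. Without the distal end, 12, 5, 13 and 17 were higher in zld-, 3, 75, 4 and 5 in gd7, and 1 was lower in gd7 at 1.5 to 2 h. Centring gave 8 lower in zld- at 1.5 to 2 h. Removing the trend gave 9 there, 5 lower and 43 higher in gd7 at 1.5 to 2 h, 5 lower at 2 to 2.5 h, and 15 and 18 higher in cic6. Centring or removing the trend left 0 differences between the first and last gd7 windows, and removing the trend left 9 between the first pair of zld- windows. At 4 regions the called cic6 rise at 2 to 2.5 h turned to -0.091, -0.21, -0.010 and -0.100 with the trend removed, at 4:58809-60922 by ci, 4:834066-836179 by Sox102F, 4:981448-983561 by fuss and 4:1031155-1033268 in ATPsynbeta. Leaving out the shortest list or the distal end, and comparing neighbouring windows, were chosen after the data had been seen.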
